A study of Zea mays with 18 samples.

Results

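Intron entries are rows of the deposited expression table that hold the reads counted in the introns of an assembled locus, under the identifier of that locus followed by the suffix intron. Every row with this suffix was taken, which gave 26258 of the 103962 rows of the table, at most 1 for each locus. The remaining 77704 rows are the loci themselves. The locus row of the same identifier without the suffix, called the parent locus here, was present for 26153 intron entries and not in the table used here for 105. The table covers whole kernels of 2 maize (Zea mays) inbred lines, DAN3130 and JI63, which the labels place in the NSS subpopulation. Kernels were taken 24 and 35 days after pollination (DAP 24 and DAP 35) and at maturity, once the plants had yellowed, from field-grown plants of a single summer. There were 3 libraries in each of 6 groups, DAN3130 DAP 24, DAN3130 DAP 35, DAN3130 mature, JI63 DAP 24, JI63 DAP 35 and JI63 mature. The lines carry no transgene or treatment in the labels. The labels call the 3 libraries of a stage biological replicates, the methods speak of pooled RNA, and how the pools relate to the replicates is not stated, so p-values measure the spread between these libraries. A whole kernel mixes endosperm, embryo and maternal coat, and in such bulk samples fewer cells of a type and less RNA per cell cannot be told apart.

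Introns are removed from a primary transcript by the spliceosome, and a poly(A) transcript in the cytoplasm usually carries none. A read in an intron can come from a transcript not yet spliced, from an intron kept in the mature RNA, which is a common form of alternative splicing in plants, from an exon that the gene model lacks, or from another transcript within the same span. Counts alone do not separate these sources. During kernel filling the endosperm makes starch and storage proteins, and at maturity the starchy endosperm is dead and dry while embryo and aleurone remain alive and keep stored transcripts.

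Recovered reads counted in loci ran from 9428728 in DAN3130 mature replicate 2 to 133264978 in JI63 DAP 35 replicate 1, and those in introns from 96837 to 900779. On log2(normalized count + 1), the residual SD of tested intron entries was 0.90, 1.38 and 2.33 in DAN3130 on DAP 24, on DAP 35 and at maturity, and 0.89, 0.84 and 1.78 in JI63. Locus rows spread less, with residual SDs from 0.61 to 1.97, and in both kinds of row mature DAN3130 spread most. The alignment was not strand-specific, so reads from an intron and from a gene on the other strand within it cannot be told apart. Another locus row overlapped the span in 1490 (55.5%) of the 2687 tested intron and locus pairs. As a check of the tissue, 14 locus rows of endosperm markers (9 of them with a mean above 10) summed to 1382857 to 1717709 normalized counts in DAN3130 on DAP 24 and 4 rows of embryo markers to 161336 to 216004. At maturity the endosperm sums were 1829 to 25500.3 in DAN3130 and 309 to 2776 in JI63, and 7 rows of vegetative markers summed to at most 297 in any library.

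Most intron entries held few reads. No read fell in 10535 (40.1%) of the 26258, and 15723 held a read in at least 1 library, 368 of them in all 18. A mean above 10 normalized counts over the 18 libraries, the filter for tests, was reached by 2843 intron entries (10.8%) against 37.6% of locus rows, and a mean above 100 by 120. The number with reads moved with intron length. With entries split by intron length into 4 bins of equal size, 26.4% of the shortest (201 to 608 bases) held a read, 55.8% of the next (609 to 1380 bases), 75.1% of those of 1381 to 3402 bases and 82.3% of the longest (3403 to 418250 bases). Strong expression of the parent did not always come with intron reads, since 1310 (13.8%) of 9521 entries whose parent locus had a mean above 100 held none in any library.

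Of the 2843 intron entries, 2687 had a parent locus with a mean above 10 as well and form the tested pairs, 145 had a parent at or below that mean and 11 had no parent row. Gene identifiers were attached to 2514 of the pairs and gene names to 355, and 193 pairs joined more than 1 gene. The median pair had an intron mean of 2.46% of its locus mean. Per kilobase of length, where intron and locus densities can be compared, the median was 1.12% (quartiles 0.592% and 2.18%). Introns were denser than their own locus in 7 pairs, and in 42 pairs the intron count was above the locus count. The intron of ubiquitin1 (chr5:84630842-84634333, build B73 AGPv4), which encodes polyubiquitin, was one of these, with a mean of 809 in the intron entry and 59.9 in the locus row. Another locus lies within that span.

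A small number of entries without any gene identifier held most of the intron signal. The highest entry, XLOC_083609 (contig 153, bases 10493 to 49374), took 23.6% of all normalized intron counts, the 5 highest 71.5% and the 100 highest 79.6%. Among the 19 highest, 11 lie on unplaced contigs and 2 on chromosome 6 with loci annotated as ribosomal RNA inside their span, and these 13, a set chosen after their values were seen, took 75.8%. XLOC_083609 held 25286, 30535 and 20209 normalized counts in the DAN3130 libraries of DAP 35 and 89935, 458229 and 214297 in those of maturity. In JI63 it held 9129, 7208 and 8259 on DAP 35 and 459609, 269524 and 383803 at maturity. The groups did not overlap in either line. It rose by 3.05 ± 0.43 (log2, SE, adjusted p = 3.49e-05) in DAN3130 and by 5.47 ± 0.43 (adjusted p = 1.43e-07) in JI63. The 13 were taken by their mean over all 18 libraries, mature ones included, so high mature counts helped an entry into the set. All 13 rose from DAP 35 to maturity in both lines, by 2.88 to 5.07 in DAN3130 and 4.24 to 7.95 in JI63, which the choice of the set favours. The locus row of XLOC_083510 (contig 136) rose by 3.88 and 4.08, beside 3.58 and 5.05 for its intron entry, and its intron entry held 316 to 959% of the locus row over the 18 libraries.

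Summed over all entries, the intron signal was 0.754% ± 0.0458 (SD, n = 3) of the summed locus signal in DAN3130 on DAP 24, 0.620% ± 0.0646 on DAP 35 and 3.25% ± 2.39 at maturity. In JI63 it was 0.741% ± 0.0440, 0.595% ± 0.230 and 2.47% ± 0.668. The mature libraries held 1.64, 6.0 and 2.12% in DAN3130 and 2.91, 1.70 and 2.80% in JI63, all above every immature library. From DAP 35 to maturity the mean over both lines rose by 2.25 percentage points (exact permutation test within line, 2-sided, p = 0.005, the smallest this design can give, adjusted p = 0.045 over 9 tests, higher in 6 of 6 mature libraries). The difference from DAP 24 to DAP 35 was -0.140 points (exact p = 0.03, adjusted p = 0.09) and that between the lines 0.274 points (exact p = 0.792), neither past the threshold after adjustment. DAN3130 mature replicate 2 stands apart, at 6.0%, as does JI63 DAP 35 replicate 2, at 0.335%, and without the former the rise was 1.57 points. Without the 13 entries the group means in the same order were 0.462, 0.359, 0.485, 0.492, 0.484 and 0.261%, and the difference from DAP 35 to maturity was -0.0486 points (exact permutation p = 0.58). The 13 were chosen partly through their mature counts, so this difference is not independent of that choice.

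**Figure D1:**
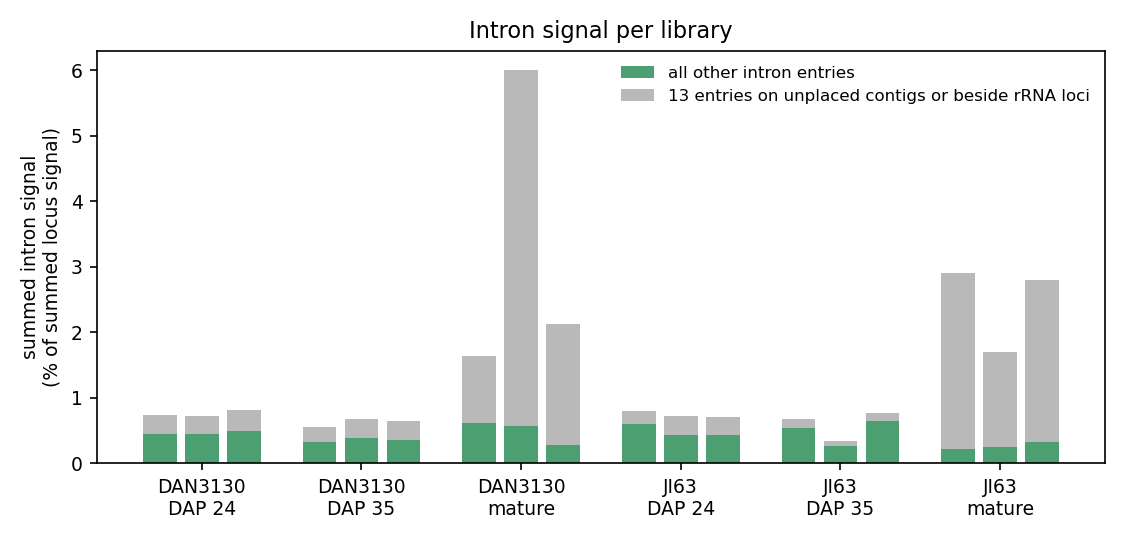
Intron signal of each library as a percentage of its summed locus signal (vertical axis), stacked as the 13 entries without gene identifier on unplaced contigs or beside ribosomal RNA loci (grey) and all other intron entries (green), for 6 groups of 3 libraries. The grey part makes up most of each mature bar, while the green part runs from 0.213 to 0.650% over the 18 libraries, both limits set by JI63.

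The number of entries with any read fell at maturity. With every library thinned to 9994417 reads, 6326, 4736 and 3032 entries on average held a read in DAN3130 on DAP 24, on DAP 35 and at maturity, and 6336, 6600.0 and 3499 in JI63. The mean over both lines was lower by 2402.5 entries at maturity than on DAP 35 (exact permutation test, p = 0.01, adjusted p = 0.045). The same was not counted over locus rows, so whether this fall is particular to introns was not tested. The median log2 ratio of intron to parent locus over the 2687 pairs was -5.55, -5.94 and -6.13 in DAN3130 through the 3 stages and -5.32, -5.13 and -5.98 in JI63. None of its 3 tests passed after adjustment. The difference was -0.10 from DAP 24 to DAP 35 (exact p = 0.62, adjusted p = 0.698), -0.52 from DAP 35 to maturity (exact p = 0.085, adjusted p = 0.132) and -0.40 for DAN3130 minus JI63 (exact p = 0.048, adjusted p = 0.108). The intron entry was at 0 in 50 to 632 of the pairs in immature libraries and in 456 to 1490 in mature ones. With 1 read in place of 1 normalized count added to both values, an alternative chosen after seeing the data, the difference from DAP 35 to maturity was -0.15 (exact p = 0.54) and that between the lines -0.33 (exact p = 0.0532). In the libraries thinned to equal reads, again with 1 read added, they were -0.02 (exact p = 0.925) and -0.36 (exact p = 0.02), and these p-values are unadjusted. DAN3130 mature replicate 2, which lost no read to the thinning, moved from -6.71 to -5.73.

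**Figure D2:**
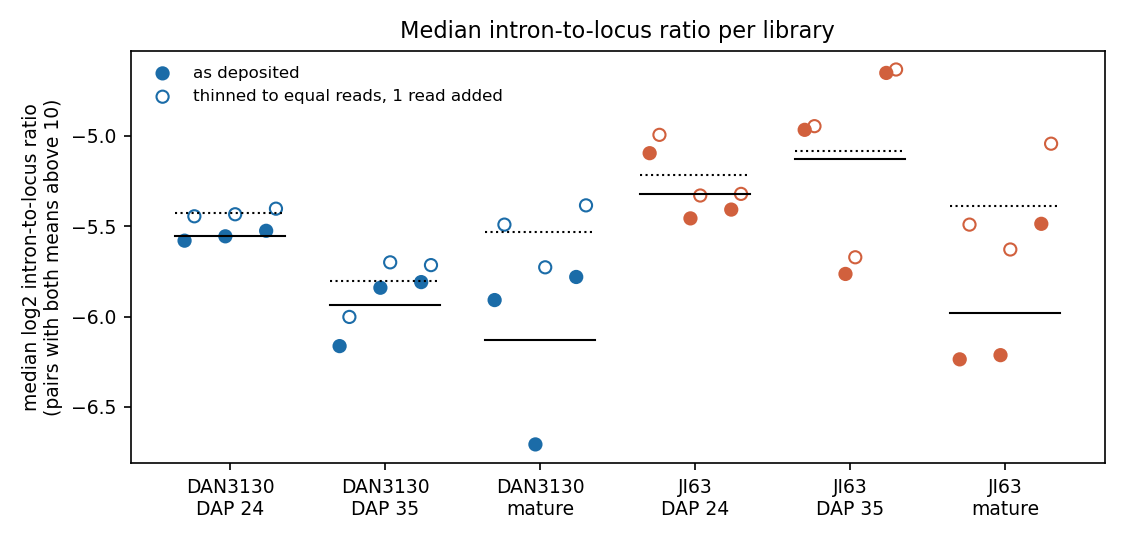
Median over 2687 pairs of the log2 ratio of intron to parent locus (vertical axis) in each of the 18 libraries by group, from normalized counts with 1 added (filled points) and from reads thinned to equal totals with 1 read added (open points), with lines for the group means. Both the number of reads and the unit of the added 1 differ between filled and open points. The mature DAN3130 mean moves from -6.13 to -5.54 and the mature JI63 mean from -5.98 to -5.39, and the JI63 DAP 35 mean moves least, from -5.13 to -5.08.

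Single entries were tested with limma on log2(normalized count + 1), with Benjamini-Hochberg adjustment over the 32034 intron and locus rows with a mean above 10, and called at an adjusted p under 0.05. Comparison III takes DAN3130 and comparison IV JI63 from DAP 35 to maturity. In III, 385 intron entries rose and 456 fell, 29.6% of the 2843 against 48.5% of all rows fitted, of which 18.6% rose and 29.9% fell. In IV, 131 rose and 490 fell, 21.8% against 43% of all rows, of which 16.4% rose and 26.6% fell. Entries that rose in both numbered 84 (21.8% of those in III, 64.1% of those in IV), entries that fell in both 238 (52.2% and 48.6%), and 8 were called in opposite directions. These overlaps were not counted over all rows fitted. The split depends on the scaling. With libraries scaled to equal totals 292 rose and 591 fell in III and 57 rose and 767 fell in IV. With DESeq2 on the recovered reads 537 rose and 379 fell in III and 191 rose and 405 fell in IV. Calls over all rows fitted were not set beside these counts.

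The falls included introns of endosperm genes and of transcription factors. Brittle endosperm2 (chr4:61315022-61321382) encodes the small subunit of the endosperm ADP-glucose pyrophosphorylase, which supplies starch synthesis. Its intron entry held 159, 139.8 and 155 normalized counts in DAN3130 on DAP 35 and 0 in each of the 3 mature libraries, at least 81.9-fold lower against a floor of 3 reads over the group (adjusted p = 3.95e-06). In JI63 it held 115, 39.1 and 56.0 and then 15.5, 0 and 0, and fell by 4.66 ± 0.82 (log2, SE, adjusted p = 0.000284). No library of one stage reached the other, and the locus row fell by 6.79 and 6.48, and the ratio was not called in either line (adjusted p = 0.801 and 0.225). Zea mays MADS6 (chr1:196372442-196380539), a MADS-box transcription factor gene, held 410.5, 453 and 178 and 0, 0 and 23.8 in DAN3130, and fell by 6.79 ± 0.89 (log2, SE, adjusted p = 1.52e-05). In JI63 its intron held 439, 393 and 619.5 on DAP 35 and 0 in each of the 3 mature libraries, at least 207-fold lower (adjusted p = 1.27e-06). Zea mays MADS7 (chr7:141716873-141728132), another MADS-box gene, went from 61.1, 52.4 and 43.6 to 0, 7.08 and 4.32 in DAN3130 (change -3.92 ± 0.67, adjusted p = 0.000184). In JI63 it went from 120.2, 95.2 and 227 to 0 in each of the 3 mature libraries, at least 63.0-fold lower (adjusted p = 7.31e-07). Apart from the 23.8 of MADS6 in DAN3130 mature replicate 3, both MADS introns held at most 7.08 in every mature library. Their locus rows, 2876 to 4235 and 2021 to 3975 on DAP 35, were at 0 to 16.9 and 0 to 78.7 at maturity.

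The endosperm marker rows moved with these falls. Their sum went from 713531 to 805909 on DAP 35 to 1829 to 25500.3 at maturity in DAN3130 and from 186256 to 193184 to 309 to 2776 in JI63. The sum of 4 rows of basal transfer layer markers, 2869 to 4052 and 109 to 353 on DAP 35, was at most 29.2 in DAN3130 and 0 in JI63 at maturity. The part of either in the falls was not tested. The intron of SnRK2 serine threonine protein kinase6 (chr4:118811903-118822922), of a kinase family that acts in abscisic acid signalling in Arabidopsis, fell while its locus rose. It held 139, 125 and 177 in DAN3130 on DAP 35 and 0, 0 and 46.4 at maturity, and fell by 5.34 ± 1.04 (log2, SE, adjusted p = 0.000561), while the locus row held 932, 1129 and 1058 and then 1588, 2015 and 1371 (change 0.66, adjusted p = 0.00752). In JI63 the intron held 278, 259 and 255 and 82.6, 29.0 and 85.2, a change of -2.14 that did not pass (adjusted p = 0.112). The intron of NAC-transcription factor 66 fell by 3.61 in III (adjusted p = 0.033), a call lost without DAN3130 DAP 35 replicate 1, 2 or 3 or DAN3130 mature replicate 2 (adjusted p = 0.0507 to 0.183). Without DAN3130 mature replicate 2 the change was -1.99 (adjusted p = 0.183). In JI63 the intron of calmodulin2, a calcium sensor, held 147, 111 and 213 and then 82.6, 2.07 and 38.9, with a change of -2.81 (adjusted p = 0.0336) that became -1.40 (adjusted p = 0.191) without JI63 mature replicate 2.

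The rises included introns of chaperone and proteolysis genes. Heat shock protein1 (chr8:174179964-174183186) held 4.26, 0 and 28.3 in its intron entry in DAN3130 on DAP 35 and 403, 227 and 91.8 at maturity, and rose by 5.25 ± 1.27 (log2, SE, adjusted p = 0.00302). In JI63 it held 35.2, 11.4 and 6.40 and then 209, 818 and 312, with a rise of 4.66 ± 1.27 (adjusted p = 0.00765). The mature libraries lay above all DAP 35 libraries in each line, while on DAP 24 a JI63 library reached 115. The locus row rose less, by 1.65 and 1.16. The small heat shock protein entry 18 kda heat shock protein18a;HSP18 rose by 2.93 (adjusted p = 0.000273) and 4.04 (adjusted p = 1.67e-05), beside 4.14 and 4.30 for its locus row. Its span (chr9:134706910-135126924) joins 3 genes and holds 8 other loci. Ubiquitin1 held 237, 282 and 261 and then 1511, 1778 and 974 in DAN3130 and 573, 383 and 583 and then 1659, 2085 and 2057 in JI63. No mature library fell to the level of a DAP 35 library of its line, and the rises were 2.40 ± 0.31 (adjusted p = 1.38e-05) and 1.93 ± 0.31 (adjusted p = 0.000125). The sums of the embryo marker rows were 585235 to 679195 on DAP 35 and 393813 to 1800916 at maturity in DAN3130. JI63 libraries of DAP 24 held 303559 to 346401, those of DAP 35 495265 to 1444384 and mature ones, all of which lay higher, 1683438 to 2380494. The part of these markers in the rises was not tested.

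Tonoplast aquaporin TIP1-1 and protein phosphatase homolog13 also gained intron reads in DAN3130, by 2.67 (adjusted p = 0.000383) and 2.00 (adjusted p = 0.0051), beside 2.36 and 2.01 for their locus rows. Cystatin1 (chr3:190628817-190634561), which encodes an inhibitor of cysteine proteases, and cysteine protease1 (chr5:162603198-162606546) did so as well. Cystatin1 went from 25.6, 2.69 and 5.89 to 217, 372 and 112 and rose by 4.58 ± 0.73 (log2, SE, adjusted p = 9.76e-05), and cysteine protease1 from 21.3, 36.3 and 31.8 to 608, 432 and 98.3 (3.30 ± 0.59, adjusted p = 0.000282). In JI63 cysteine protease1 went from 88.3, 55.3 and 143 to 232, 222 and 521 (1.74, adjusted p = 0.0265), a call lost without JI63 DAP 35 replicate 1 or 2 or JI63 mature replicate 3 (adjusted p = 0.0654 to 0.116), while the change of cystatin1 was 1.09 (adjusted p = 0.253). The gene Zm00001d052838, named in the file as a CCAAT-HAP5 transcription factor and so as a subunit of the CCAAT-binding complex, held 58.2, 65.9 and 51.2 in DAN3130 on DAP 35 and 386, 995 and 355 at maturity, and in JI63 69.6, 45.6 and 58.5 and 243, 236 and 153. Its groups did not overlap, and it rose by 3.13 (adjusted p = 2.08e-05) and 1.84 (adjusted p = 0.00231). With libraries scaled to equal totals the change in JI63 was 0.89 and did not pass (adjusted p = 0.115). The plastid entry rps7-A;Intron_gpII (plastid genome, bases 92870 to 131084), whose span holds 11 other loci, rose by 3.09 (adjusted p = 0.00228) and 2.82 (adjusted p = 0.00495), with 1026, 7154 and 720.2 in mature DAN3130 and 1086, 470.0 and 1865 in mature JI63. Catalase1, which breaks down hydrogen peroxide, had a call in III (4.92, adjusted p = 0.0211) although mature replicate 2 held 0 reads beside 635 and 282 in the others, and the call was lost without DAN3130 DAP 35 replicate 1 or DAN3130 mature replicate 1 or 3 (adjusted p = 0.0688 to 0.107).

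**Figure D3:**
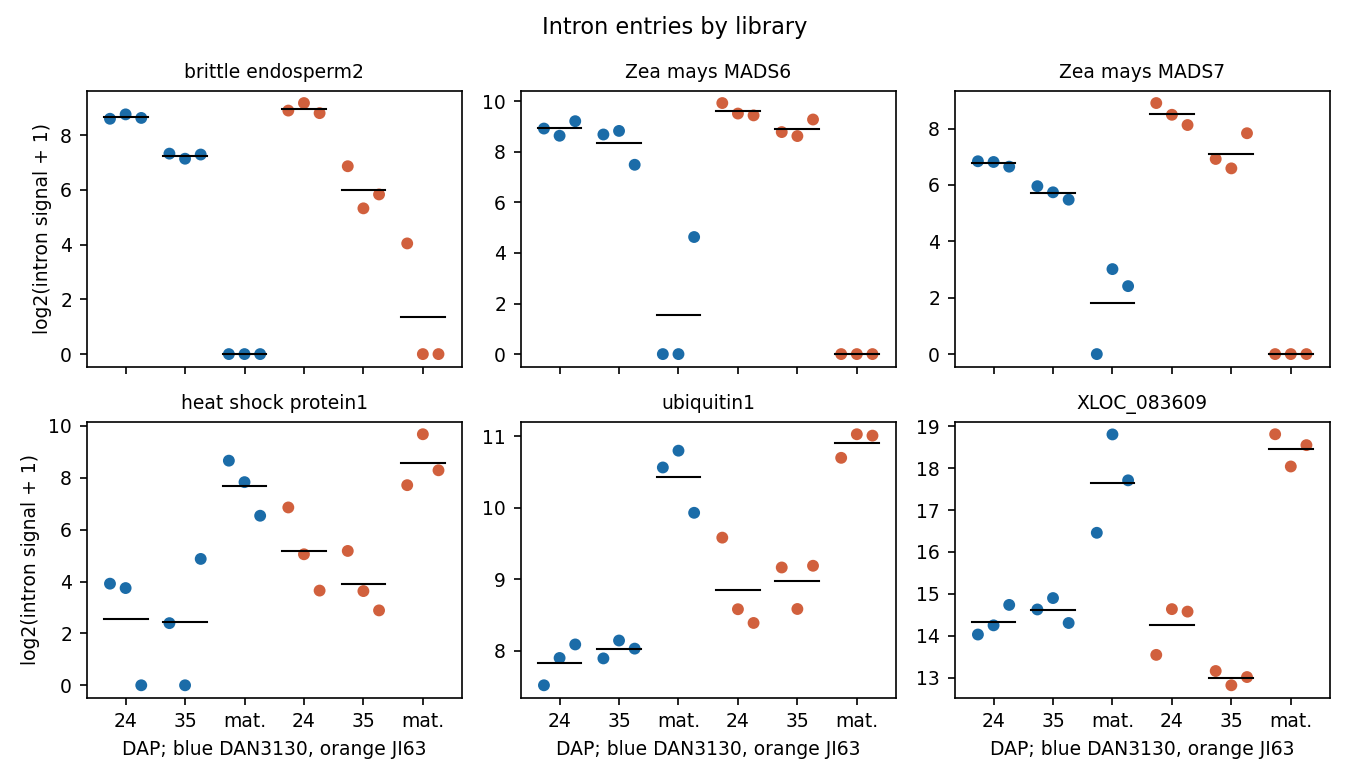
Intron counts, as log2(normalized count + 1), in each of the 18 libraries by group for brittle endosperm2, Zea mays MADS6, Zea mays MADS7, heat shock protein1, ubiquitin1 and XLOC_083609, with a bar at each group mean. The first 3 are lower in every mature library than in the DAP 35 libraries of the same line, with 23.8 normalized counts of MADS6 and 15.5 of brittle endosperm2 as the highest values at maturity, and the last 3 are higher in every mature library than in the DAP 35 libraries of the same line.

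Several calls in III rest on the spread shared by the 6 groups, which is smaller than that of mature DAN3130. In a fit of only the 2 groups compared, the adjusted p was 0.0546 for heat shock protein1, 0.0664 for rps7-A;Intron_gpII, 0.0814 for SnRK2 serine threonine protein kinase6 and 0.227 for catalase1, and 358 intron entries were called in place of 841.

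Fewer entries changed between DAP 24 and DAP 35. In comparison I (DAN3130), 14 intron entries rose and 22 fell, 1.27% of the 2843 against 5.71% of all rows fitted, of which 3.91% rose and 1.81% fell. In comparison II (JI63) 9 rose and 22 fell, 1.09% against 8.07% of all rows, of which 3.76% rose and 4.31% fell. At an unadjusted p under 0.05 the counts were 200 and 137 of the 2843, against 5606 and 6085 of the 32034 rows fitted. Some entries pass that threshold without any change. The counts moved with single libraries, from 19 to 66 in I and from 15 to 54 in II. TIP1-1 (chr1:10150836-10152891), a tonoplast aquaporin, held 31.2, 46.1 and 39.4 in DAN3130 on DAP 24 and 176, 285 and 248 on DAP 35, and rose by 2.56 ± 0.50 (log2, SE, adjusted p = 0.00527). In JI63 it went from 92.7, 72.3 and 47.2 to 289.9, 130.2 and 296 (1.70, adjusted p = 0.047). The stages did not overlap in either line, and the locus row rose by 2.72 and 1.55. The call in I was lost with intron entries adjusted alone (adjusted p = 0.0771). The call in II was lost without any 1 of 13 libraries (adjusted p = 0.0548 to 0.188). The intron of protein phosphatase homolog13 went from 40.4, 24.1 and 20.2 to 138, 69.2 and 193 in JI63 (2.14, adjusted p = 0.0184), and that of brittle endosperm2 from 475, 575 and 445 to 115, 39.1 and 56.0 (-2.95, adjusted p = 0.0372). The first call was lost without JI63 DAP 24 replicate 2 or 3 or JI63 DAP 35 replicate 1 or 3 (adjusted p = 0.0678 to 0.0939) and the second lost without any 1 of 10 libraries (adjusted p = 0.0508 to 0.147).

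The ratio of an intron entry to its parent locus shows whether the intron moved apart from the rest of its gene, and size factors nearly cancel in it. In III the ratio rose in 174 of the 2687 pairs and fell in 150 (12.1%), and in IV it rose in 55 and fell in 204 (9.64%). In I it fell in 2 pairs (0.0744%) and in II limma called 0 (0%). At an unadjusted p under 0.05 there were 104 and 39 of the 2687 pairs, and some pairs pass that threshold without any change. With reads thinned to equal totals and 1 read added to both values the ratio rose in 301 and fell in 133 pairs in III and rose in 119 and fell in 160 in IV, and the parts of depth and of the unit of the added 1 in these counts were not tested. Of the 174 that rose in III the locus row had fallen in 121 and the intron entry had risen in 85, and of the 55 in IV the locus had fallen in 37 and the intron risen in 20. Of the 150 ratios that fell in III the intron had fallen in 119 and the locus risen in 72. Of the 204 in IV the intron had fallen in 139 and the locus risen in 115. The definition of the ratio favours these directions. Over all 2687 pairs the intron entry rose in 334 and fell in 439 in III, and in 109 and 477 in IV. Over the 29191 locus rows fitted, 5572 rose and 9136 fell in III, and 5135 and 8021 in IV.

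Across the 2687 pairs the change of the intron entry correlated with that of its locus at Pearson's r = 0.487 and Spearman's rho = 0.440 in III and at 0.459 and 0.427 in IV, a description across genes that share libraries and are not independent replicates. Both rows of a pair had the same sign in 1683 pairs in III and 1651 in IV.

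**Figure D4:**
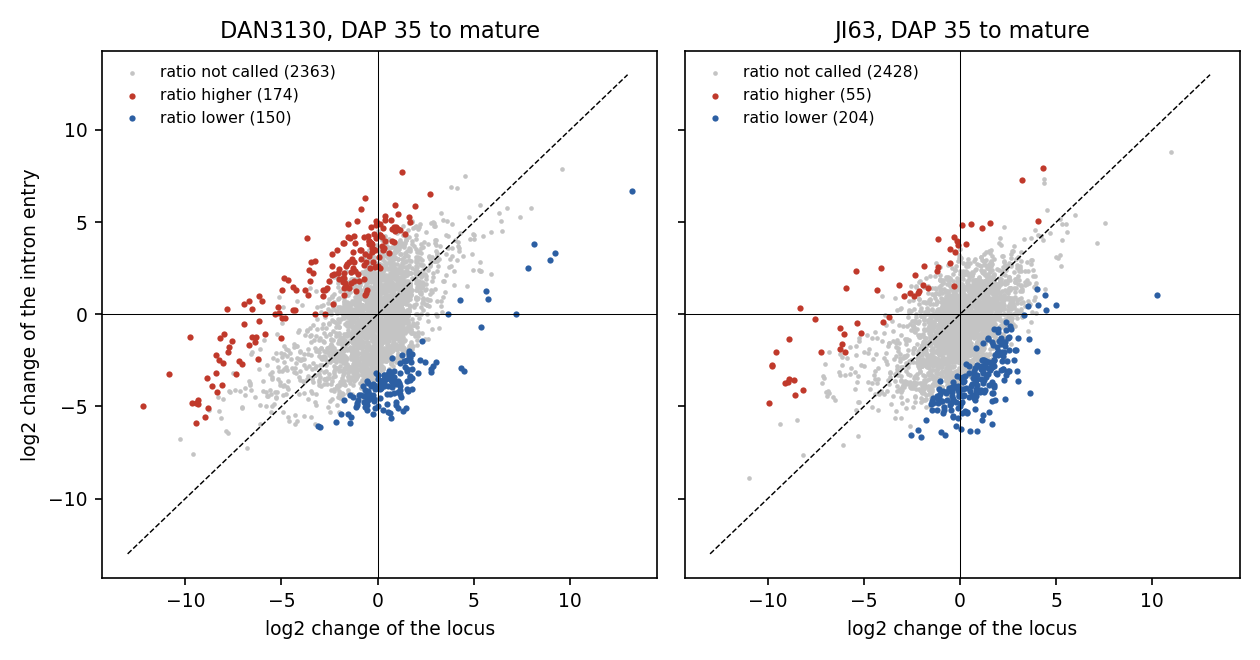
Log2 change from DAP 35 to maturity of the intron entry (vertical axis) against that of its parent locus (horizontal axis) for 2687 pairs, in DAN3130 (III) and JI63 (IV), with pairs whose ratio was called higher or lower in colour and pairs not called in grey. Called pairs lie above and below the diagonal in near equal number in III, 174 and 150, and mostly below it in IV, 55 and 204.

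Named pairs show both ways in which a ratio moved. In SnRK2 serine threonine protein kinase6 the intron held 14.9, 11.1 and 16.7% of the locus count in DAN3130 on DAP 35 and 0, 0 and 3.39% at maturity, and the ratio fell (change -6.0 ± 1.11, adjusted p = 0.00142). In JI63 the percentages were 21.2, 18.9 and 18.5 and then 3.49, 1.23 and 5.02, again without overlap, with a ratio change of -2.79 that did not pass (adjusted p = 0.118). Multi-protein bridging factor homolog1 (chr4:26180699-26183398), named for a transcriptional coactivator, fell in ratio through its locus. Its intron held 456, 254 and 184 in JI63 on DAP 35 and 108, 228 and 168 at maturity while the locus went from 3816, 5189 and 3487 to 28028, 23034 and 25683, and the ratio fell by 3.42 ± 0.70 (log2, SE, adjusted p = 0.00415). The locus groups did not overlap and the intron groups did. The ratio of TIP1-1 fell by 3.10 (adjusted p = 0.0166), that of ferredoxin3, an electron carrier, by 2.83 (adjusted p = 0.0339) and that of calmodulin2 by 3.89 (adjusted p = 0.0199) in IV. In each of these the locus rose, by 3.52, 2.41 and 1.08, all by the test. The first call was lost without JI63 DAP 35 replicate 1 or 3 or JI63 mature replicate 1 (adjusted p = 0.0686 to 0.127), the second lost without JI63 DAP 35 replicate 1 or 3 or JI63 mature replicate 1, 2 or 3 (adjusted p = 0.0595 to 0.18) and the third lost without JI63 DAP 35 replicate 1 or 3 or JI63 mature replicate 2 (adjusted p = 0.0702 to 0.108).

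Ratios that rose in III were those of splayed ATPase1, heat shock protein1, cystatin1, cysteine protease1 and MADS7 among the pairs taken by the naming rule. Splayed ATPase1 (chr6:122234832-122284355), named for an ATPase of the SNF2 chromatin remodelling type, had a locus that fell from 9069, 8589 and 11079.7 to 3809, 2886 and 1861 while its intron held 17.0, 41.7 and 58.3 and then 135, 262 and 75.6. The intron made up 0.188 to 0.526% of the locus count before and 3.55 to 9.08% after, without overlap, and the ratio rose by 3.77 ± 0.66 (log2, SE, adjusted p = 0.00112). Its span holds 7 other loci. The ratio of cystatin1 rose by 3.43 (adjusted p = 0.0117), that of cysteine protease1 by 2.73 (adjusted p = 0.0132) and that of heat shock protein1 by 3.61 (adjusted p = 0.0289), the last also in IV (3.51, adjusted p = 0.0418). For cystatin1 the call was lost without DAN3130 DAP 35 replicate 2 (adjusted p = 0.0739), for cysteine protease1 lost without DAN3130 DAP 35 replicate 1 or DAN3130 mature replicate 1 (adjusted p = 0.0559 to 0.0613), and for heat shock protein1 lost without DAN3130 DAP 35 replicate 1 or 2 or DAN3130 mature replicate 1 (adjusted p = 0.0661 to 0.159) in III and lost without any 1 of 8 libraries (adjusted p = 0.0528 to 0.181) in IV. That of MADS7 rose by 4.69 (adjusted p = 0.00549), where intron and locus at maturity were 0, 7.08 and 4.32 and 2.41, 49.6 and 0, and the ratio there rests on few reads and on the pseudocount. In the fit of only the 2 groups compared none of the 324 ratio calls of III was kept, since that fit called 0 pairs (adjusted p = 0.105 for splayed ATPase1, 0.157 for SnRK2 serine threonine protein kinase6 and 0.221 for cystatin1), against 162 of 2687 in IV.

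DAN3130 was compared with JI63 at each stage. Reads of both lines were aligned to the B73 genome. A line difference in intron RNA and one in how intron reads align to B73 cannot be told apart here. On DAP 24, 108 intron entries had higher and 138 lower counts in DAN3130, 8.65% against 22.9% of all rows fitted (10.3% higher, 12.6% lower). On DAP 35 the counts were 110 and 228, 11.9% against 22% (10.5% and 11.4%), and at maturity 250 and 325, 20.2% against 35.3% (14.8% and 20.4%). The balance at maturity turned with the scaling, to 282 higher and 237 lower entries with libraries scaled to equal totals. Higher at all 3 stages were 35 entries and lower at all 3 were 56. The same was not counted over all rows fitted, so whether these numbers are particular to introns was not tested. The ratio was higher in DAN3130 in 20 pairs and lower in 30 at the first stage (1.86%), in 28 and 70 at the second (3.65%) and in 145 and 152 at maturity (11.1%), and it had the same direction at all 3 stages in 9 and 12 pairs. With edgeR and the locus as offset, 183 ratios were higher and 119 lower at maturity.

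Of the 10 highest intron entries, only that of Zm00001d026632 (chr10:149192553-149193770), a gene without a name in the file, had a gene identifier. That entry was nearly confined to DAN3130 among these libraries, as counted from reads aligned to B73. It held 635, 655 and 1634 normalized counts on DAP 24, 2809.5, 4986 and 959 on DAP 35 and 10560.3, 11326 and 4619.5 at maturity in DAN3130. In JI63 it held 2.16, 0 and 0.482, then 0.347, 4.07 and 5.25, and 0 in each of the 3 mature libraries. All 9 DAN3130 libraries thus held 635 to 11326 and all 9 JI63 libraries 0 to 5.25. The difference was 9.04 ± 0.72 (adjusted p = 1.91e-07) on DAP 24 and 9.41 ± 0.72 (adjusted p = 1.56e-07) on DAP 35, and at maturity at least 3774-fold (adjusted p = 3.68e-09). The locus row was present in both lines, at 3352 to 4163 in DAN3130 and 2903 to 3954 in JI63 on DAP 24, and did not pass the test on DAP 24 (0.12, adjusted p = 0.927) or DAP 35 (0.90, adjusted p = 0.218). The intron, 329 bases long beside 808 bases of locus, held 15.3 to 88.7% of the locus count in DAN3130 and 0 to 0.195% in JI63, and the ratio differed by 8.92 (adjusted p = 2.77e-07), 8.51 (adjusted p = 6.77e-07) and 11.35 (adjusted p = 2.3e-09).

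Cystatin1 and chaperone DNA J2 differed between the lines in opposite directions at the immature stages. The cystatin1 intron held 3.71, 2.62 and 0 in DAN3130 and 66.8, 37.0 and 36.1 in JI63 on DAP 24, and on DAP 35 25.6, 2.69 and 5.89 and 190.0, 249 and 273. It was lower in DAN3130 without overlap, with differences of -4.15 ± 0.73 (adjusted p = 0.000466) and -4.75 ± 0.73 (adjusted p = 0.000142), while its locus row was higher in DAN3130 by 1.39 and 1.66. The intron held 0 to 0.582% of the locus count in DAN3130 and 1.96 to 16.2% in JI63, and the ratio differed by -5.54 (adjusted p = 0.000636) and -6.40 (adjusted p = 0.000131). At maturity the ratio difference was -3.57 (adjusted p = 0.00878, and 0.189 in the fit of only these 2 groups).

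The intron of chaperone DNA J2 (chr1:254194080-254197449), of the DnaJ co-chaperone family, held 169, 164 and 134 in DAN3130 and 4.85, 3.21 and 2.89 in JI63 on DAP 24, and 72.4, 137 and 123 and 6.42, 1.63 and 7.31 on DAP 35. It was higher in DAN3130 by 5.09 ± 0.76 (adjusted p = 0.000101) and 4.31 ± 0.76 (adjusted p = 0.000502), again without overlap. Its locus row differed by only 0.77 and 0.50, and the ratio by 4.32 (adjusted p = 0.00201) and 3.81 (adjusted p = 0.00353). Another locus lies within its span. From DAP 35 to maturity it rose by 3.46 ± 0.76 (log2, SE, adjusted p = 0.0017) in JI63, to 31.0, 190.5 and 34.1. At maturity the lines differed by 2.63 (adjusted p = 0.0139), and without DAN3130 mature replicate 2, which held 1069.6, by 1.87 (adjusted p = 0.0666). The ubiquitin1 intron was lower in DAN3130, with differences of -1.01 on DAP 24 (adjusted p = 0.026) and -0.96 on DAP 35 (adjusted p = 0.0367), the first lost without DAN3130 DAP 24 replicate 1 or 2 or JI63 DAP 24 replicate 1 (adjusted p = 0.0586 to 0.16) and the second lost without DAN3130 DAP 35 replicate 1, 2 or 3 or JI63 DAP 35 replicate 1 or 3 (adjusted p = 0.0626 to 0.128).

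At maturity the entries higher in DAN3130 included those of aquaporins, of a translation factor and of a phosphatase. TIP1-1 held 2107, 2486 and 619 in DAN3130 and 250.3, 441 and 246 in JI63 (2.30 ± 0.50, adjusted p = 0.00199), while its locus row was lower in DAN3130 (difference -1.95), and the ratio differed by 4.25 (adjusted p = 0.00114, and 0.147 in the fit of only the 2 mature groups, which called 1 pair in place of 297). Plasma membrane intrinsic protein2 (chr7:42951694-42954967), a plasma membrane aquaporin, held 449, 609 and 229 and 106, 161 and 112 (1.67 ± 0.42, adjusted p = 0.00596). The gene of eukaryotic translation initiation factor 5A (chr7:168491796-168494907) held 743, 287 and 116 in its intron in DAN3130 and 18.1, 68.3 and 9.74 in JI63 (3.59 ± 0.83, adjusted p = 0.00314). The lines did not overlap in any of these 3 entries. Protein phosphatase homolog13 was higher by 1.56 (adjusted p = 0.0298), a call lost without DAN3130 mature replicate 1 or JI63 mature replicate 2 or 3 (adjusted p = 0.0659 to 0.0977). Glutamate-oxaloacetate transaminase1, an aspartate aminotransferase, had a higher ratio by 1.74 (adjusted p = 0.0246), which was 1.10 (adjusted p = 0.12) without DAN3130 mature replicate 2.

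Lower in mature DAN3130 were the introns of small ubiquitin-related modifier1a (-3.60, adjusted p = 0.0467) and of ribosomal protein S27 (-3.09, adjusted p = 0.036). DAN3130 mature replicate 2 held 0 reads of each, beside 147 and 137 of the first and 91.7 and 36.7 of the second in the other two. Without it the differences were -1.21 (adjusted p = 0.135) and -1.12 (adjusted p = 0.0532). In the fit of only the 2 mature groups 148 intron entries were called in place of 575, and the adjusted p was 0.0863 for TIP1-1, 0.0828 for plasma membrane intrinsic protein2 and 0.105 for eukaryotic translation initiation factor 5A.

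**Figure D5:**
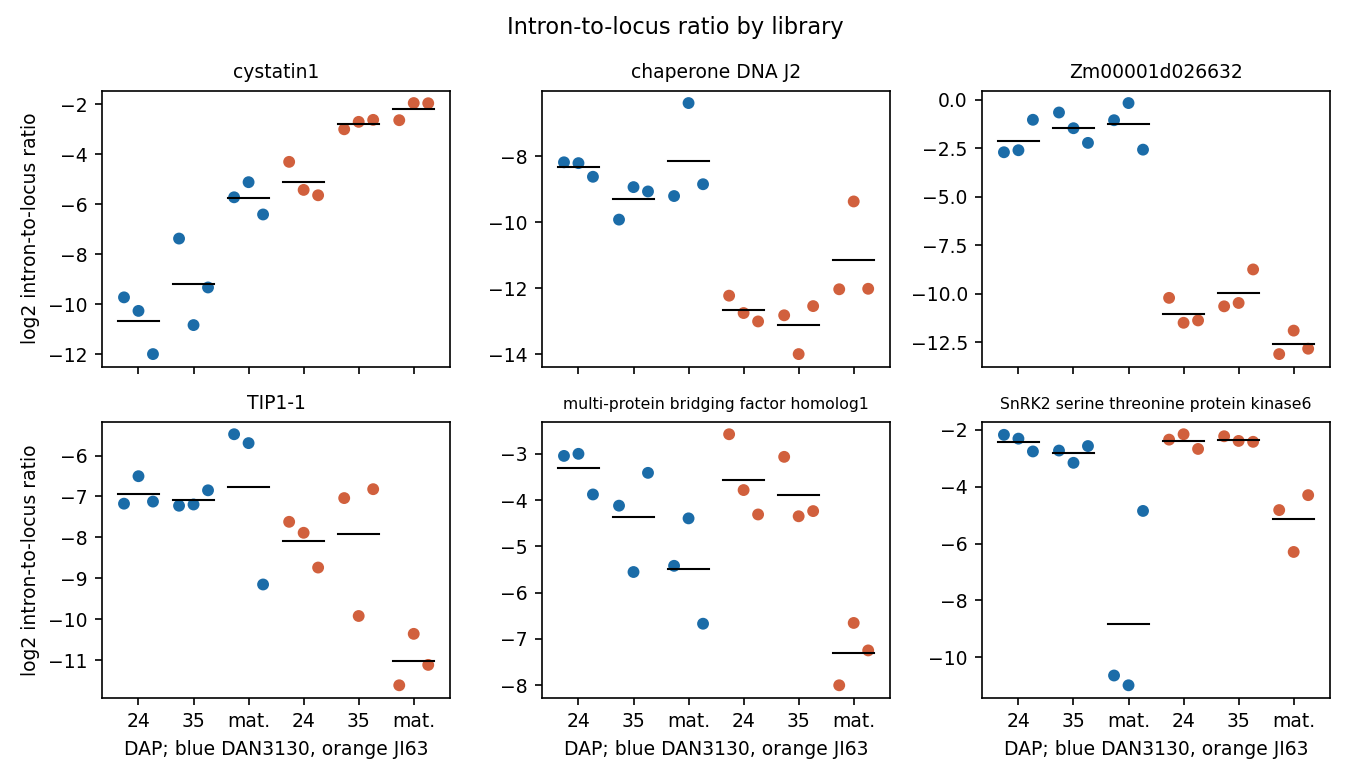
Log2 ratio of intron to parent locus, each with 1 added, in each of the 18 libraries by group for cystatin1, chaperone DNA J2, Zm00001d026632, TIP1-1, multi-protein bridging factor homolog1 and SnRK2 serine threonine protein kinase6, with a bar at each group mean. Cystatin1 lies lower and chaperone DNA J2 and Zm00001d026632 higher in DAN3130 than in JI63 on DAP 24 and DAP 35, and SnRK2 serine threonine protein kinase6 is lowest in the mature libraries of each line.

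The difference between the lines in a stage change was tested as an interaction. From DAP 24 to DAP 35 (II minus I) 6 intron entries passed, 2 with a higher change in JI63 and 4 with a lower one (0.211% against 2.01% of all rows fitted). From DAP 35 to maturity (IV minus III) 141 passed, 47 higher and 94 lower in JI63 (4.96% against 12.7%). The count was 354 without DAN3130 mature replicate 3 and 82 without JI63 DAP 35 replicate 1 or 3. In ratio limma called 0 of 2687 pairs (0%) for II minus I, with 62 at an unadjusted p under 0.05. For IV minus III it called 2 pairs (0.0744%), with 411 at an unadjusted p under 0.05. Among named entries, the change of cystatin1 in JI63 minus that in DAN3130 was -3.49 (adjusted p = 0.0369), the same difference was -3.20 for MADS7 (adjusted p = 0.0369) and -2.12 for plasma membrane intrinsic protein2 (adjusted p = 0.0285). The first call was lost without any 1 of 8 libraries (adjusted p = 0.0637 to 0.0864), the second lost without any 1 of 15 libraries (adjusted p = 0.0501 to 0.107) and the last lost without any 1 of 7 libraries (adjusted p = 0.0502 to 0.0852). Over the alternatives the value for MADS7 ran from -6.90 to -2.05. Its intron was at 0 in all 3 mature JI63 libraries, so the size of this difference depends on the pseudocount. The named entries were taken by calls in the same libraries, so these interaction p-values are not independent of that choice.

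The study concerned folate, a cofactor of one-carbon transfer that plants build from pterin, p-aminobenzoate and glutamate. Of 36 identifiers of folate and one-carbon genes, 22 had an intron entry, and the intron and locus pair passed the filter in 4. ADCL1 (chr1:63214865-63234392), an aminodeoxychorismate lyase that makes p-aminobenzoate, held 42.3, 14.6 and 32.9 normalized counts in its intron in JI63 on DAP 35 and 0, 2.07 and 0 at maturity. It fell by 4.29 ± 0.78 (log2, SE, adjusted p = 0.000378), without overlap, while its locus row held 2378 to 2957 and then 2348 to 2731, and the ratio fell by 4.25 (adjusted p = 0.0117). In DAN3130 on DAP 35 it held 1.42, 0 and 2.94, lower than in JI63 (difference -3.74, adjusted p = 0.00208), where the locus difference was -1.62. The serine hydroxymethyltransferase gene SHMT-GLY1, named glycine1 in the file, held 76.2, 46.4 and 113 and then 0, 20.7 and 0 in JI63 (-4.74 ± 1.47, adjusted p = 0.0159), beside a locus change of -0.90. This call was lost without JI63 DAP 35 replicate 3 or JI63 mature replicate 1 or 3 (adjusted p = 0.0546 to 0.0676), and the ratio call of ADCL1 was lost without JI63 DAP 35 replicate 1 or 3 (adjusted p = 0.0595 to 0.0783).

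The other tested pairs of folate genes had no call. The intron of DHNA2, a dihydroneopterin aldolase of the pterin branch, held 0 to 8.52 in immature DAN3130 and 2.28 to 22.5 in immature JI63 (difference -3.60, adjusted p = 0.0831 on DAP 24), and at maturity 0, 113 and 0 in DAN3130 and 0 in each of the 3 JI63 libraries. The intron of DHC1, a gene of the one-carbon part of the list, held 0 to 60.5 over the 18 libraries. The remaining 18 entries had means of at most 9.72, and those of FPGS2, GCSH1, GCSP, GCST and MS3 held no read, although the locus rows of FPGS2, GCSP, GCST and MS3 had means of 1891, 1915, 582 and 928. The introns of these 4 are listed with 495 to 947 bases.

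Lists of genes were formed from words in the gene names, and no list was tested as a set. By the same test 29.6% of all tested intron entries and 48.5% of all rows fitted were called in III, and 21.8% and 43% in IV. Between the lines the shares were 8.65% and 22.9% on DAP 24, 11.9% and 22% on DAP 35 and 20.2% and 35.3% at maturity. The entries named from these lists were chosen after their values were seen. Of 106 tested intron entries of transcription factors, 11 rose and 14 fell in III (median change -0.45, against -0.27 over all intron entries tested) and 4 rose and 17 fell in IV (median -0.80 against -0.62). PHD-transcription factor 2, with a mean of 40.8 over the 18 libraries, fell in III (-5.32, adjusted p = 8.42e-05) and IV (-3.02, adjusted p = 0.00813). MADS-transcription factor 41 fell in count in both (-4.67 and -3.58) and rose by 4.66 (adjusted p = 0.00386) and 5.04 (adjusted p = 0.00271) in ratio. Its locus row thus fell more than its intron entry, whose mean was 21.1, and the mature ratio depends on the pseudocount. In the fit of only the 2 groups compared no ratio call of III was kept. GNAT-transcription factor 11 rose by 4.37 (adjusted p = 0.000206) and 3.18 (adjusted p = 0.00303). Between the lines, DAP 24 had 1 entry with higher and 3 with lower counts in DAN3130, DAP 35 had 1 and 5, and maturity 6 and 8. The entries of MYB-related-transcription factor 101 and Aux/IAA-transcription factor 36, the latter of a family of auxin response repressors, were lower in DAN3130 at all 3 stages. Their differences were -3.67, -3.80 and -3.46 for the first and -3.65, -2.64 and -5.26 for the second. ZF-HD-transcription factor 6 was higher in DAN3130 on DAP 24 (4.64, adjusted p = 0.0143) and DAP 35 (4.56, adjusted p = 0.0166).

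Of 23 tested entries of kinases and phosphatases, 1 rose and 7 fell in III (median -1.30) and 0 rose and 2 fell in IV (median -0.74). Over all intron entries tested 29.6% were called in III and 21.8% in IV, and over all rows fitted 48.5% and 43%. The entry of aspartate kinase homoserine dehydrogenase2, an enzyme of the aspartate-derived amino acids, fell in I (-2.74, adjusted p = 0.0477), III (-2.95, adjusted p = 0.00489) and IV (-4.24, adjusted p = 0.000355). Hexokinase9 fell by 3.83 in III (adjusted p = 0.00115). At maturity 2 entries were higher and 5 lower in DAN3130, among the latter nucleotide diphosphate kinase1 (difference -4.29, adjusted p = 0.00208). The 5 also include cyclin-dependent kinase inhibitor2 and receptor for activated C kinase1, which are listed only by the word kinase and are named as an inhibitor and a receptor. Of 5 tested heat shock entries, 2 rose and 1 fell in III and 3 rose and 1 fell in IV. The one that fell was HSF-transcription factor 29, a heat shock factor (-3.65, adjusted p = 0.00575 in III and -3.98, adjusted p = 0.00367 in IV). Of 6 ubiquitin and protease entries, 3 rose in III and 2 in IV and none fell by the test, the third in III being small ubiquitin-related modifier1b (adjusted p = 0.0182).

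Starch, storage and chromatin genes had few entries with enough reads. Of 16 starch and sucrose entries 3 were tested, and brittle endosperm2 was called in II, III and IV. Of 8 entries of storage proteins and their regulators 2 were tested. The entry of 22kD alpha zein4;AZS22-8, of a storage protein family whose near-identical copies can share reads, fell in III (-5.23, adjusted p = 2.4e-05) and IV (-2.02, adjusted p = 0.032), and was higher in DAN3130 on DAP 35 by 3.21 (adjusted p = 0.00346). Its ratio rose by 7.55 in IV (adjusted p = 0.00269) and was lower in mature DAN3130 (difference -6.34, adjusted p = 0.0068). The difference in intron counts between the mature lines was 0, so that ratio difference came from the locus row alone. The intron mean over the 18 libraries was 12.1. The ratio call in IV thus rests on few intron reads, on the pseudocount and on the locus row. The entry of opaque endosperm5, listed only by the word opaque in its name, rose in ratio in III (5.61, adjusted p = 0.0205). Its intron count, with a mean of 20.1, was not called there (adjusted p = 0.0555). Of 17 chromatin entries 5 were tested, of which single myb histone6 fell in IV by 4.35 (adjusted p = 0.0154). Of 3 entries of RNA splicing and RNA binding genes and 1 of late embryogenesis abundant genes, 0 reached the filter.

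The 5 highest and 5 lowest mean log2 ratios of counts were taken among named pairs with both means at least 100. Per kilobase, the intron density of the highest 5 was 18.7% of the locus density in Zm00001d052838, 4.23% in NAC-transcription factor 66, 2.89% in MADS6, 0.738% in MADS7 and 0.0121% in HSP18, whose listed intron length is 418250 bases. The 5 lowest were chaperone DNA J2 (0.241%), ferredoxin3 (0.175%), TIP1-1 (0.349%), catalase1 (0.646%) and heat shock protein1 (0.972%). In Zm00001d052838 the intron count was 46.2 to 92.7% of the locus count in DAN3130 on DAP 24 and 8.74 to 20.5% in mature JI63, where the locus held 1184, 1814 and 1755. All 5 genes with the lowest ratios had locus means of 20527 to 158282 normalized counts.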

How the data were processed

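The labels of 18 maize kernel libraries gave 6 groups of 3, and replicates were numbered in accession order. The deposited values are read counts that the authors divided by DESeq2 size factors, a normalized signal per locus or intron entry. Per the labels and methods, reads were aligned with HISAT2 2.1.0 to B73 AGPv4 without strand, transcripts were assembled with Cufflinks and counted with HTSeq 0.11.2. How intron entries were delimited is not stated in the labels or methods. In each library 100.0% of values were whole multiples (within 0.1%) of the value of 1 read, which gave the recovered reads and depth.

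Rows with a mean above 10 were tested with limma 3.58.1 (R 4.3.3) on log2(value + 1), with all 18 libraries and a variance trend, and the ratio as the difference of both log2 values. Fold changes on this scale understate those of low entries. Library measures had exact permutation tests. edgeR 4.0.16 on the recovered reads called 682 intron entries in III and 428 in IV, and DESeq2 1.42.0 called 916 and 596. Other alternatives were the pseudocount, filter, trend, scaling, thinning and each library left out. The fits were tested on simulated data. Python 3.11.15, numpy 2.4.6, pandas 2.3.3, scipy 1.17.1 and matplotlib 3.10.9 were used.

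Named entries were the 10 of highest mean, up to 5 each way per comparison in count and in ratio among genes that carry a name, with means not under 100, no overlap between groups and an adjusted p under 0.05, the tested folate genes, and the 5 highest and 5 lowest ratios. The members and lists were chosen with earlier results of these data known. Gene names came from the file, since no identifier matched the reference table. No sequence was read.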

Additional observations from a re-analysis of the deposited data

Results flagged for a closer look

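The change from DAP 35 to maturity differed between the lines, by the interaction test in limma with adjustment over all rows, in 8 of the named entries. Positive values mean a larger log2 change in JI63 than in DAN3130. Among entries without gene identifier the difference was 4.35 for XLOC_058271 (adjusted p = 0.0133), 2.93 for XLOC_083613 (adjusted p = 0.0199) and 2.42 for XLOC_083609 (adjusted p = 0.0168), each called in 28 of 29 alternatives. These entries were taken by their mean over all 18 libraries, so high counts in mature JI63 helped them into the set. That choice favours a larger rise in JI63. The difference was -3.59 for Zm00001d026632 (adjusted p = 0.0295), whose JI63 counts were at most 5.25 and which was taken by its mean as well. For genes with names it was -3.49 for cystatin1 (adjusted p = 0.0369), -3.20 for Zea mays MADS7 (adjusted p = 0.0369), -2.25 for TIP1-1 (adjusted p = 0.0474) and -2.12 for plasma membrane intrinsic protein2 (adjusted p = 0.0285). These calls were kept in 20, 18, 13, 7 and 19 of 29 alternatives, in the order Zm00001d026632, cystatin1, Zea mays MADS7, TIP1-1 and plasma membrane intrinsic protein2. The value for Zea mays MADS7 ran from -6.90 to -2.05 over the alternatives.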

How the results depend on the processing

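The direction of the summed intron percentage from DAP 35 to maturity depends on which entries are summed. It was -0.0647 points without the 100 highest entries (exact permutation p = 0.435), -0.0582 over entries with a gene identifier (exact p = 0.495) and -0.0486 without the 13 entries (exact p = 0.58). The 100 highest and the 13 entries were picked by means that include the mature libraries, which favours a lower value at maturity without them. The difference from DAP 24 to DAP 35 was -0.0464, -0.0386 and -0.0558 points in the same order (exact p = 0.44, 0.565 and 0.415). The alternatives by gene identifier, without the 13 entries, without another locus in the span, with at least 1 read and with 1 read added to unthinned reads were chosen after seeing the data. The number of intron entries tested changes with the filter. A mean above 1 was reached by 9225, a mean above 10 by 2843, and 15723 held any read. Counts of calls under other settings, here and above, were not set beside those over all rows fitted. They show the dependence on processing only. With a filter at a mean above 1, intron counts gave 285 calls in I, 121 in II, 1331 in III, 1472 in IV, 1142 in the lines on DAP 24, 1034 in the lines on DAP 35, 870 in the mature lines, 79 in II minus I and 368 in IV minus III, and ratios gave 5 calls in I, 1250 in III, 760 in IV, 312 in the lines on DAP 24, 442 in the lines on DAP 35, 922 in the mature lines and 53 in IV minus III. Without the filter, intron counts gave 377 calls in I, 280 in II, 1739 in IV, 1519 in the lines on DAP 24, 1279 in the lines on DAP 35, 210 in II minus I and 429 in IV minus III, and ratios gave 109 calls in I, 18 in II, 2504 in III, 1758 in IV, 1317 in the lines on DAP 24, 1402 in the lines on DAP 35, 1612 in the mature lines, 3 in II minus I and 343 in IV minus III. With a filter at a mean above 50, intron counts gave 11 calls in I, 14 in II, 206 in III, 127 in IV, 44 in the lines on DAP 24, 64 in the lines on DAP 35, 94 in the mature lines, 3 in II minus I and 30 in IV minus III, and ratios gave 0 calls in I, 96 in III, 74 in IV, 17 in the lines on DAP 24, 34 in the lines on DAP 35 and 61 in the mature lines. In a fit of only the 2 groups compared, intron counts gave 113 calls in I, 116 in II, 358 in III, 663 in the lines on DAP 24 and 148 in the mature lines, and ratios gave 0 calls in I, 0 in III, 162 in IV, 317 in the lines on DAP 24, 199 in the lines on DAP 35 and 1 in the mature lines. With intron entries adjusted alone, intron counts gave 0 calls in I, 1 in II, 412 in IV, 151 in the lines on DAP 24, 211 in the lines on DAP 35, 0 in II minus I and 35 in IV minus III. With edgeR on the recovered reads, intron counts gave 14 calls in I, 17 in II, 3 in II minus I and 49 in IV minus III. With DESeq2 on them, intron counts gave 64 calls in I, 61 in II and 23 in II minus I. With edgeR and the locus as offset, ratios gave 0 calls in I and 32 in IV minus III. With a pseudocount of 5, intron counts gave 13 calls in II minus I, and ratios gave 502 calls in III, 478 in IV, 79 in the lines on DAP 24 and 13 in IV minus III. With a pseudocount of 0.5, ratios gave 1 call in I and 32 in the lines on DAP 24. Without the variance trend, intron counts gave 11 calls in II minus I, and ratios gave 1 call in I and 10 in IV minus III. For pairs with no other locus in the span, ratios gave 0 calls in I, 146 in III, 143 in IV, 22 in the lines on DAP 24, 55 in the lines on DAP 35 and 116 in the mature lines. With the intron set to at least 1 read, ratios gave 85 calls in the lines on DAP 24, 167 in the lines on DAP 35 and 5 in IV minus III. With reads thinned to equal totals and 1 read added, ratios gave 92 calls in the lines on DAP 24 and 151 in the lines on DAP 35. Without 1 library, intron counts gave 19 to 66 calls in I, 15 to 54 in II, 682 to 1057 in III, 416 to 748 in IV, 178 to 328 in the lines on DAP 24, 209 to 445 in the lines on DAP 35, 486 to 728 in the mature lines, 2 to 22 in II minus I and 82 to 354 in IV minus III. Ratios gave 0 to 3 calls in I, 0 to 0 in II, 182 to 587 in III, 68 to 432 in IV, 16 to 92 in the lines on DAP 24, 35 to 179 in the lines on DAP 35, 229 to 582 in the mature lines, 0 to 1 in II minus I and 0 to 121 in IV minus III. The difference in intron percentage ran from -0.185 to -0.0751 from DAP 24 to DAP 35, 1.57 to 2.66 from DAP 35 to maturity and -0.183 to 0.543 between the lines. That in the median log2 ratio ran from -0.21 to 0.06 from DAP 24 to DAP 35, -0.68 to -0.38 from DAP 35 to maturity and -0.50 to -0.30 between the lines. That in entries with a read ran from -878.83 to -328.75 from DAP 24 to DAP 35, -2736.75 to -2180.17 from DAP 35 to maturity and -1002.72 to -631.67 between the lines. With 1 read added to unthinned reads, the line difference in the median log2 ratio was -0.33 (exact p = 0.0532). The line difference in percentage changed sign without DAN3130 mature replicate 2, and the change of the median ratio from DAP 24 to DAP 35 was 0.0635 without JI63 DAP 35 replicate 2. Equal totals shifted log2 values by 0.05 to 0.41 in immature, -0.44 to 0.07 in mature DAN3130 and -0.82 to -0.56 in mature JI63 libraries, and gave 282 higher and 237 lower entries in mature DAN3130 against JI63. With the locus as offset, edgeR gave 189 ratios higher and 107 lower in III and 183 and 119 between the mature lines. With edgeR 9 entries rose and 5 fell in I. Of 3876 values of 131 single results under alternatives, 3438 kept direction and call, 438 kept direction only and 0 turned, and 62 of the results kept their call under every alternative run. Depth limits entries near 0, where 1 read was worth 0.173 to 3.54 normalized counts. No paired analysis was possible because the library codes in the labels are not shared between groups. Why these values moved was not tested.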

Other observations

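Locus rows annotated as ribosomal RNA moved in the same direction as the 13 intron entries without gene identifier. They took 0.0323, 0.0382 and 0.0269% of the summed locus signal in the 3 DAN3130 libraries of DAP 35 and 0.476, 0.584 and 0.339% in the mature ones. In JI63 they took 0.0179, 0.0125 and 0.0159% on DAP 35 and 0.138, 0.0501 and 0.144% at maturity. The stages did not overlap in either line. Loci without any gene identifier took 1.87 to 10.2% of the summed locus signal, with the highest share in DAN3130 mature replicate 2, the library in which the intron percentage was also highest. The relation of these values to the intron signal was not tested.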
